A study of Mus musculus with 8 samples.

Results

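Drug-metabolising enzymes and the receptors that govern them were followed in mouse primary hepatocytes, the parenchymal cells of the liver, across 4 groups of 2 one-colour Affymetrix arrays. The set held 39 genes: xenobiotic cytochrome P450s, the P450 reductase Por, flavin monooxygenases (Fmo), UDP-glucuronosyltransferases (Ugt), sulfotransferases (Sult), the steroid enzyme gene Cyp17a1 and the receptor genes Nr1i2, Nr1i3 and Ahr. Members were taken by name, as probe sets whose platform symbol is exactly that gene, and each gene was represented by its brightest probe set. Of the 39 members, 35 had such a probe set and 30 were tested, out of 10741 genes tested in all.

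Cells came from wild-type (WT) mice or from mice lacking transglutaminase 2, a protein-crosslinking enzyme encoded by Tgm2 (KO). All mice had the strain label C57BL6/129SVJ, a mixed background. Cells of each genotype were incubated for 15 h with 0 or 100 mM ethanol, which gave the groups untreated WT, ethanol WT, untreated KO and ethanol KO, each with an A and a B array. The sex and age of the mice were not given, nor whether A and B came from separate animals or cultures, and the p-values cover the spread between these arrays alone, part or all of which may be technical. The knockout was not described as limited to the liver or to a cell type. The treatment text of both B ethanol arrays reads as an untreated incubation, whereas their titles give 100 mM, and the titles were followed.

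Drug metabolism in the liver runs in phases. P450s and flavin monooxygenases oxidise lipophilic compounds, and glucuronosyltransferases and sulfotransferases then couple the products to glucuronic acid or sulfate for excretion. The receptors below set much of this programme: CAR (Nr1i3), the classical activator of Cyp2b10, PXR (Nr1i2), the classical activator of Cyp3a11, and the aryl hydrocarbon receptor (Ahr), which activates Cyp1a1. CAR and PXR bind DNA with RXR, and they are expressed under the control of liver-enriched factors such as HNF4A. P450 genes are sensitive to inflammation and to the loss of hepatocyte identity in culture, and several differ between the sexes in mouse liver.

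Promoters are shown for 2 pairs of related genes on the same chromosome whose members behaved differently below: Cyp2b10, which rose with ethanol, beside Cyp2b9, which was higher in KO, and Cyp2c37, which was higher in KO, beside Cyp2c70, which was lower. Each runs from 250 bases before to 50 bases after the RefSeq start site in GRCm38.p6 and is written along the gene's own strand. The windows are chr7:25897408-25897707 (+) for Cyp2b10, chr7:26173159-26173458 (+) for Cyp2b9, chr19:39992174-39992473 (+) for Cyp2c37 and chr19:40187237-40187536 (-) for Cyp2c70. Capitals mark matches, on either strand, to any of 6 motifs, and no matches overlapped: the GC box GGGCGG, the nuclear receptor half-sites AGGTCA and AGTTCA, the AHR core GCGTG, the TATA box TATAAA and the CCAAT box CCAAT.
Cyp2b10: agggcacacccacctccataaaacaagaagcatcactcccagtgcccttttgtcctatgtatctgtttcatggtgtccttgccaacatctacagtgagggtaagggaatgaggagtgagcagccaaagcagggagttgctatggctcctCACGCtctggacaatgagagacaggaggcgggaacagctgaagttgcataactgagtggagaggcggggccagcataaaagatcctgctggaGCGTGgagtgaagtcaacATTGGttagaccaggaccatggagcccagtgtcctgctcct
Cyp2b9: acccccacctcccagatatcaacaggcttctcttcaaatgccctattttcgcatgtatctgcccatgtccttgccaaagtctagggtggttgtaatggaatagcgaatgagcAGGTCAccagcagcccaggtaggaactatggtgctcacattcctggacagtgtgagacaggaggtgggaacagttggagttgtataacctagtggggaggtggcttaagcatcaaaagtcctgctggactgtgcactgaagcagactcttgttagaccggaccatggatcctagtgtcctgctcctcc
Cyp2c37: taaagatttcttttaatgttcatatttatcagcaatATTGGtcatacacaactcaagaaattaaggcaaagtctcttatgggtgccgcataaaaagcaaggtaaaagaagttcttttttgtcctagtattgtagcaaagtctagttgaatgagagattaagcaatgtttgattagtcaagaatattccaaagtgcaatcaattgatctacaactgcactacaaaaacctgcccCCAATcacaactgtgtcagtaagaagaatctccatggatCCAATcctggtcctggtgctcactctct
Cyp2c70: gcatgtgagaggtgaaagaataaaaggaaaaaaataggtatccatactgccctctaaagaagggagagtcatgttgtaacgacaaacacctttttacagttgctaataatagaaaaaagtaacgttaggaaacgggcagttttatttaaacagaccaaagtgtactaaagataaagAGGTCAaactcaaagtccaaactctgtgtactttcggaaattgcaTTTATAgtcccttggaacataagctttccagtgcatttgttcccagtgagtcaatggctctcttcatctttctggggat

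With the start site counted as base 0, the Cyp2b10 window held GCGTG at -101 to -97 (reverse strand) and at -9 to -5, and CCAAT at 9 to 13 (reverse strand). The Cyp2b9 window held none of these and had AGGTCA at -138 to -133. The Cyp2b10 and Cyp2b9 windows were identical at 218 of 311 aligned positions (70.1%), and those of Cyp2c37 and Cyp2c70 at 143 of 331 (43.2%). Cyp2c70 had AGGTCA at -74 to -69 and TATAAA at -29 to -24 (reverse strand), whereas Cyp2c37 had 3 CCAAT matches, at -214 to -210 (reverse strand), -17 to -13 and 22 to 26.

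RefSeq windows of this length were found for 34 of the 39 members and for 27025 genes in all. TATAAA lay in 47.1% of the members' windows and 14.2% of all windows, and AGGTCA in 35.3% and 16%. GGGCGG, the kind of box that Sp1 binds, lay in 11.8% of the members' windows (Cyp1b1, Cyp3a11, Fmo5 and Por) and 35.9% of all windows. GCGTG lay in 14.7% against 32.5%, AGTTCA in 14.7% against 14%, and CCAAT in 41.2% against 37.9%. These shares describe letters in a window of 300 bases and not bound sites.

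The labels were checked first. The brightest Tgm2 probe set read 16656 to 16836 in normalised intensity on the 4 WT arrays, 378 and 368 on the untreated KO arrays and 704 and 628 on the ethanol KO arrays. Of the 12 hepatocyte markers, 10 were measured and all were bright, from 430 for Hnf4a on its lowest array to 18006 for Apoa1 on its highest. The deposited arrays differed in brightness before normalisation, with trimmed means of 99.1, 102 and 104 on the untreated KO arrays and ethanol KO A while the remaining 5 read 200 to 299. Correlations across probe sets were 0.971 to 0.983 within groups and 0.95 to 0.982 between groups. The ratio of the spike-in controls bioC and bioB was 0.937 to 1.06 on 3 arrays (untreated WT A, ethanol WT A and ethanol KO A) and 2.59 to 3.14 on the others. The 3′ to 5′ ratio of Pcx, a control for RNA integrity, was 10 and 16.8 in WT cells without and 26.7 and 44.5 with ethanol, and 10.6 and 8.69 in KO cells without and 4.91 and 5.45 with ethanol. Its part in the results was not tested.

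Members were accounted for as follows. Cyp2a4, Cyp2a5, Cyp2c40 and Por had no probe set carrying their symbol alone. Cyp1b1, Cyp2b13, Cyp2c39 and Cyp3a16 were below the filter on dim probe sets, with normalised intensities of 2.04 to 42.9 for Cyp1b1, 1.71 to 15 for Cyp2b13, 3.29 to 35.6 for Cyp2c39 and 0.431 to 7.9 for Cyp3a16. The single probe set of Ugt2b36 was unusable on ethanol WT B. On the other 7 arrays it read 3459 and 3488 in untreated WT, 3808 in ethanol WT A, and 3851 and 4163 in KO cells without and 3837 and 3384 with ethanol, and a fit that kept the missing value called none of its 5 contrasts (adjusted p = 0.14 to 0.69). Many members belong to families of close relatives, and a probe set can take up signal from a near-identical copy, above all those with identifiers ending in _s_at or _a_at, such as the brightest ones of Cyp2b10, Cyp2d9, Fmo5 and Ugt2b34.

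Ethanol raised Cyp2b10 in both genotypes, by 2.11-fold in WT and 2.74-fold in KO. Few other members were called. In WT cells 2 of the 30 tested members were higher (6.67%, against 2.3% of all genes) and none lower (against 2.51%); the members were Cyp2b10 and Fmo5. In KO cells 4 members were higher (13.3%, against 14.1% of all genes), namely Cyp2b10, Cyp2d22, Cyp2d9 and Nr1i2, and 2 were lower (6.67%, against 10%), namely Ugt2a3 and Cyp2c37. The KO shares therefore lay near or below those of all genes. A call here is an adjusted p under 0.05 in limma, and differences are on the scale log2(normalised intensity + 16), given with the standard error (SE). The median member difference was 0.075 in WT and 0.12 in KO, beside 0.048 and 0.039 over all genes tested. At an unadjusted p under 0.05 the member counts were 7 in WT and 11 in KO. No share of all genes was counted at that threshold, so these counts cannot be read as particular to the members.

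**Figure D1:**
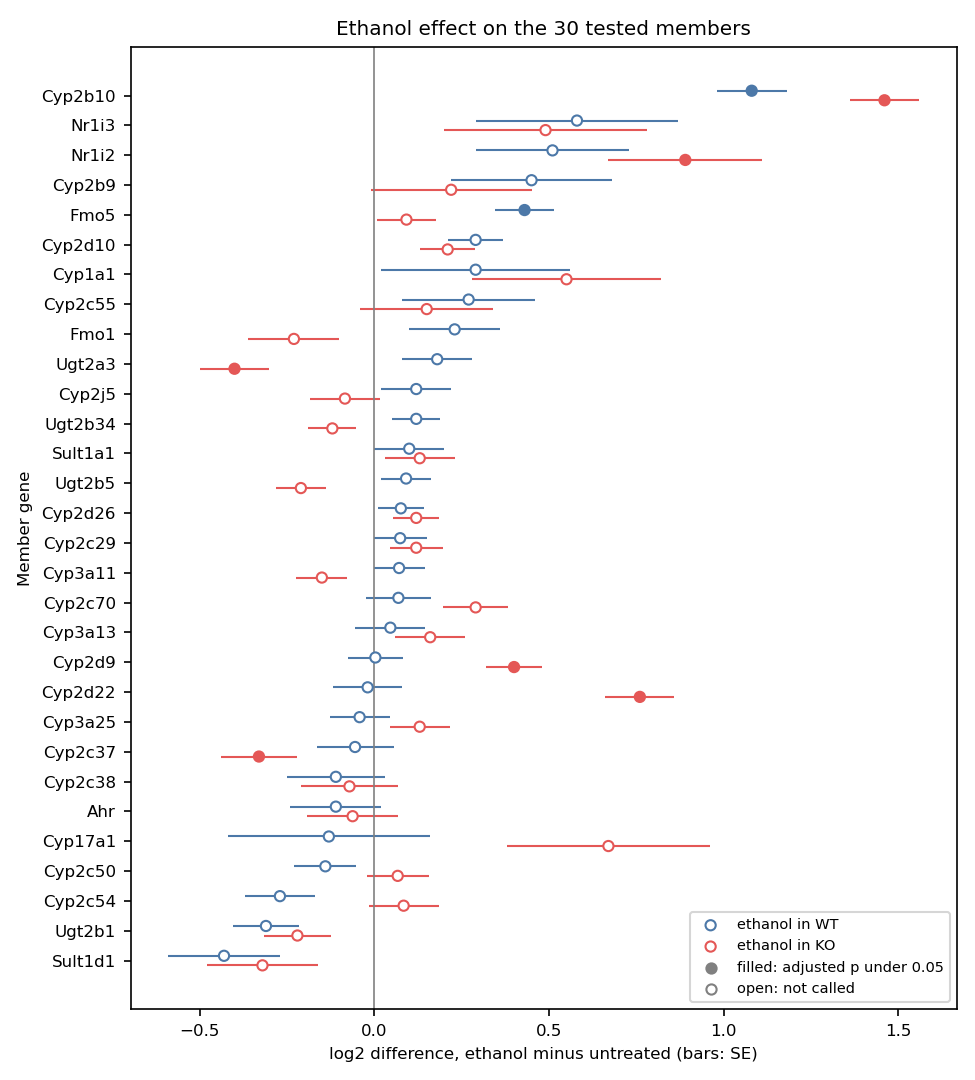
Ethanol minus untreated difference of the 30 tested members on the log2 scale (x axis), with 1 row per gene (y axis) in order of the WT value. Points are limma estimates in WT (blue) and KO (red) from 2 arrays per group, bars are SE, and filled points were called at an adjusted p under 0.05: Cyp2b10 stands at the top in both genotypes, at 1.08 and 1.46, and Cyp2d22 at -0.019 and 0.76.

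Cyp2b10 encodes a P450 of many drug substrates and is the standard CAR target. Its normalised intensity in WT cells was 1576 and 1526 without ethanol (A, then B) and 3480 and 3102 with it, and in KO cells 1170 and 1271 without and 3688 and 3084 with it. All 4 ethanol arrays lay above all 4 untreated ones, including both B arrays whose treatment text is at odds with their titles. The ethanol difference was 1.08 ± 0.1 in WT (adjusted p = 0.00063) and 1.46 ± 0.1 in KO (adjusted p = 0.00012). Both other Cyp2b10 probe sets gave the same call, at 1.1 and 1.25 in WT and 1.33 and 1.68 in KO. Within the arrays of one spike-in ratio class, the difference in WT was 1.13 below and 1.02 above a ratio of 2, and in KO 1.33 above it. The larger value in KO was not called: the difference between the ethanol effects was 0.38 ± 0.14 (adjusted p = 0.15), and 0.23 and 0.43 by the other probe sets (adjusted p = 0.28 and 0.054). Counting both B ethanol arrays as untreated, as their treatment text reads, ended the call in both genotypes.

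The closest relative, Cyp2b9, a P450 that is higher in female than male mouse liver, was dim. It read 37 and 36.8 in WT cells without and 71.9 and 43.6 with ethanol, and 129 and 123 in KO cells without and 143 and 155 with ethanol. WT and KO arrays did not overlap, and the ethanol difference was not called in either genotype.

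The receptor genes were measured by 2 probe sets for Nr1i2, 1 for Nr1i3 and 2 for Ahr. Nr1i2 read 68.1 and 72.4 in WT cells without and 122 and 93.4 with ethanol, and 70.8 and 54.9 in KO cells without and 138 and 120 with ethanol. The ethanol arrays again lay above the untreated arrays in both genotypes, and the difference was called in KO (0.89 ± 0.22, adjusted p = 0.018) and not in WT (0.51 ± 0.22, adjusted p = 0.24). These effects were not shown to differ between genotypes (0.38 ± 0.31, adjusted p = 0.5), and the second Nr1i2 probe set was called in neither (0.7 in WT, adjusted p = 0.22, and 0.72 in KO, adjusted p = 0.1). Leaving out untreated KO A, untreated KO B or ethanol KO A each ended the call in KO.

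Nr1i3 read 41.1 and 42.9 in WT cells without and 82.7 and 60.2 with ethanol, and 106 and 64.3 in KO cells without and 153 and 98.2 with ethanol. The A and B arrays lay far apart in all groups but untreated WT, and none of the differences was called, neither for ethanol (0.58 ± 0.29 in WT, 0.49 ± 0.29 in KO) nor for genotype (0.77 ± 0.29 untreated, adjusted p = 0.068, and 0.68 ± 0.29 with ethanol, adjusted p = 0.11). Ahr read 311 and 308, 271 and 301, 245 and 260, and 259 and 225 in the same order of groups. All 4 KO values were below all 4 WT values, but no Ahr difference was called (KO minus WT -0.28 ± 0.13 untreated, adjusted p = 0.14), and its dimmer second probe set gave 0.4 ± 0.38. Cyp1a1, the classical AHR target, was near the filter at 21.9 to 51.9 on all arrays and was called in no contrast.

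**Figure D2:**
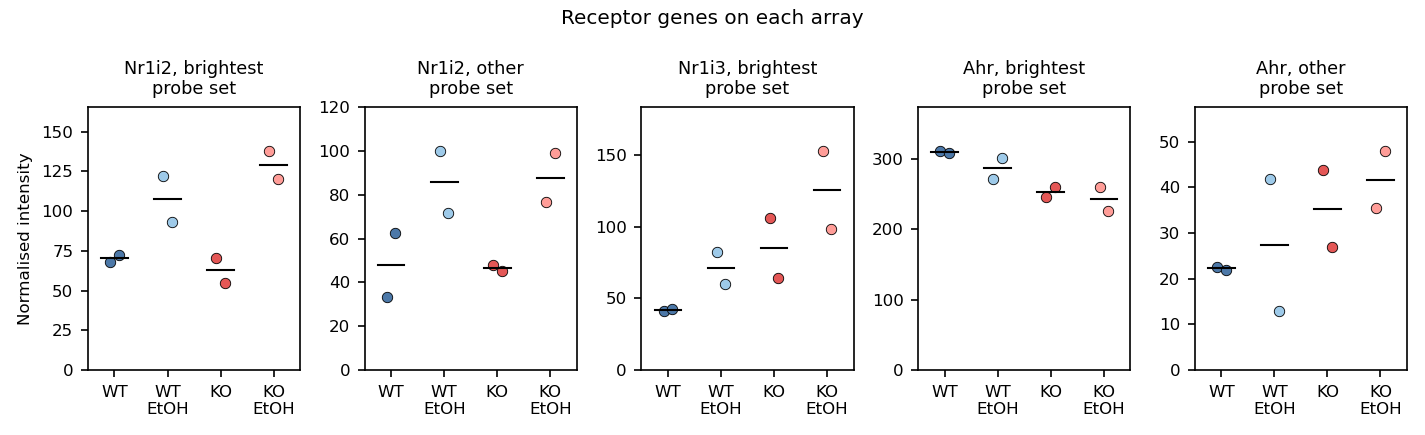
Normalised intensity (y axis, from 0) of the probe sets of Nr1i2, Nr1i3 and Ahr on each of the 8 arrays, by group (x axis; EtOH, 100 mM ethanol). Points are single arrays, A at the left and B at the right of each pair, and lines are the means of 2 arrays: Nr1i2 reads 54.9 to 72.4 without and 93.4 to 138 with ethanol by its brightest probe set.

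Between genotypes, calls were more frequent than for ethanol, among the members as among all genes. In untreated cells 9 of 30 members were higher in KO (30%, against 15.1% of all genes) and 4 were lower (13.3%, against 21%). With ethanol 8 were higher (26.7%, against 12.4%) and 3 lower (10%, against 17.5%). The median member difference, KO minus WT, was 0.063 untreated and 0.13 with ethanol, beside -0.089 and -0.078 over all genes. The comparisons have no arrays in common but share a joint normalisation and a pooled estimate of the spread, so they are not independent tests. At an unadjusted p under 0.05 they gave 17 and 16 members, again without a share of all genes to read these counts against. Fmo1, Cyp2b9, Cyp2c37, Sult1d1, Ugt2b1 and Cyp2d26 were higher in KO in both comparisons and Cyp17a1, Cyp2c70 and Cyp3a25 lower in both. In untreated cells the Cyp2b, Cyp2c and Cyp3a families each had 1 member called higher and 1 lower. Cyp17a1 passed the filter on dim probe sets only through the WT groups, so it had to differ, and without it 3 of 29 members were lower untreated (10.3%) and 2 with ethanol (6.9%). Every called member had the same sign in each spike-in ratio class that gave a value, which was 1 class for untreated cells and 2 with ethanol.

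**Figure D3:**
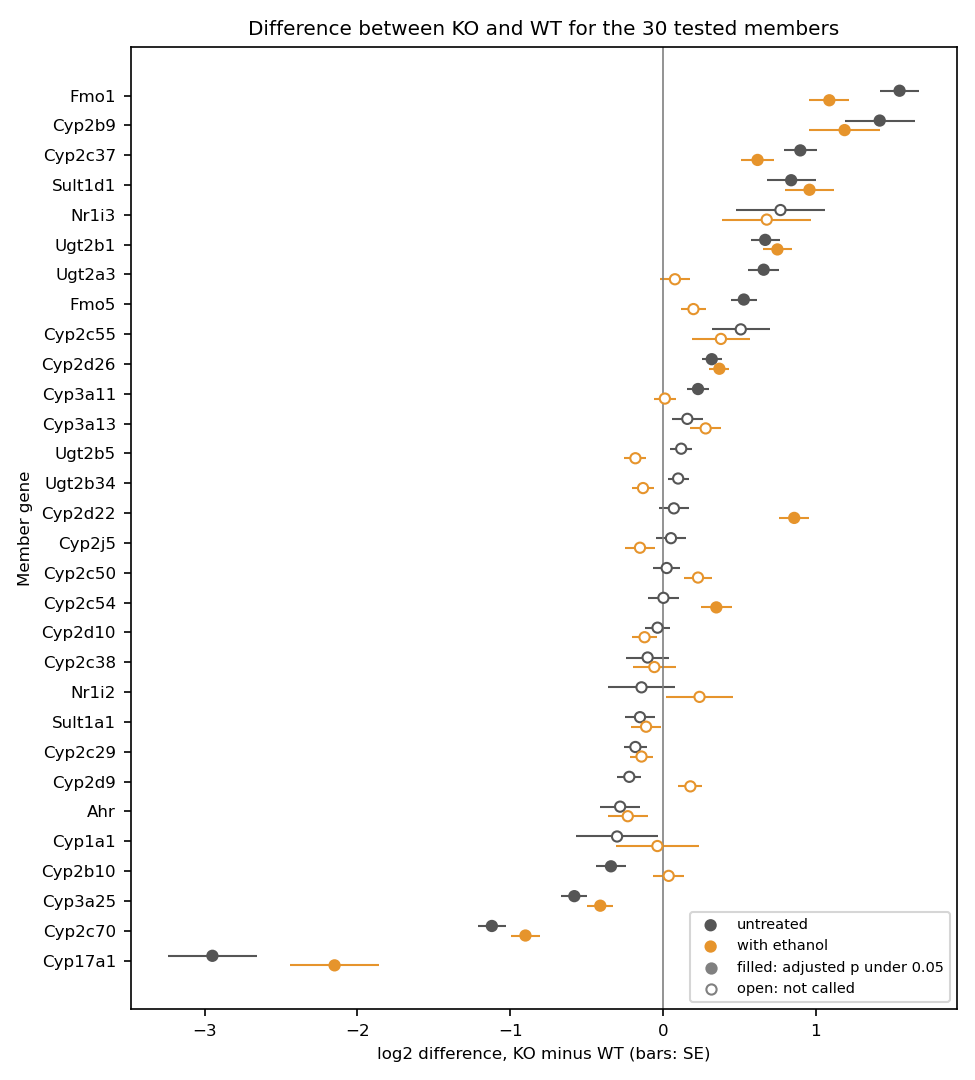
KO minus WT difference of the 30 tested members on the log2 scale (x axis), with 1 row per gene (y axis) in order of the untreated value. Points are limma estimates without (grey) and with ethanol (orange) from 2 arrays per group, bars are SE, and filled points were called at an adjusted p under 0.05: values run from -2.95 for Cyp17a1 to 1.55 for Fmo1 in untreated cells.

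Fmo1, a flavin monooxygenase that oxidises nitrogen and sulfur centres, was higher on all KO arrays than on any WT array. It read 190 and 160 in WT cells without and 216 and 197 with ethanol, and 508 and 577 in KO cells without and 472 and 444 with ethanol. It was 2.93-fold higher in untreated KO (1.55 ± 0.13, adjusted p = 4.2e-05) and 2.13-fold higher in ethanol KO (1.09 ± 0.13, adjusted p = 0.00034). Fmo5, the other family member, read 550 and 551, 732 and 763, 803 and 805, and 859 and 857 in the same order. It rose with ethanol in WT (0.43 ± 0.084, adjusted p = 0.019) and was higher in untreated KO (0.53 ± 0.084, adjusted p = 0.0012), so that the 2 untreated WT arrays stood below the rest. Its 2 dimmer probe sets were not called in either contrast (0.33 and 0.3 for ethanol in WT, adjusted p = 0.19 and 0.6). The WT call was lost under 10 of 22 other settings, including leaving out any 1 WT array.

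Cyp2b9 was 2.68-fold higher in untreated KO (1.42 ± 0.23, adjusted p = 0.0015) and 2.28-fold higher in ethanol KO (1.19 ± 0.23, adjusted p = 0.0046). Cyp2b10 moved the other way in untreated cells, by -0.34 ± 0.1 (adjusted p = 0.027), with both other probe sets called at -0.32 and -0.74. With ethanol the brightest Cyp2b10 probe set showed 0.038 ± 0.1 (adjusted p = 0.82), whereas the third was called at -0.31 (adjusted p = 0.014). The untreated Cyp2b10 call was lost under 7 of 21 other settings, among them leaving out any 1 of the 4 untreated arrays.

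The Cyp2c genes, which encode P450s of drugs and fatty acids, lie side by side on chromosome 19. Of the 9 members, 7 were tested, and neighbours differed in direction. Cyp2c37 read 2454 and 2307 in WT cells without and 2382 and 2202 with ethanol, and 4392 and 4497 in KO cells without and 3131 and 3970 with ethanol. All KO arrays lay above all WT arrays, by 0.9 ± 0.11 untreated (adjusted p = 0.00024) and 0.62 ± 0.11 with ethanol (adjusted p = 0.0022). Ethanol lowered it in KO by -0.33 ± 0.11, a call just under the threshold that was lost under 15 of 21 other settings; ethanol KO A and B were far apart.

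Cyp2c70, which makes muricholic bile acids in mice, went the opposite way. It read 3207 and 3405 in WT cells without and 3348 and 3592 with ethanol, and 1462 and 1560 in KO cells without and 2012 and 1698 with ethanol. No KO array reached any WT array, and it was 2.18-fold lower in untreated KO (-1.12 ± 0.093, adjusted p = 3.4e-05) and 1.87-fold lower in ethanol KO (-0.9 ± 0.093, adjusted p = 0.00012). Cyp2c54, between these 2 genes, was called higher in KO than in WT on the ethanol arrays (0.35 ± 0.1, adjusted p = 0.025), with no ethanol effect called in either genotype. The genotype call was lost under 8 of 22 other settings, including without ethanol WT A, ethanol WT B or ethanol KO A. Cyp2c29, Cyp2c38, Cyp2c50 and Cyp2c55 were not called in any contrast. Cyp2c29 was the brightest of the family's probe sets at 8159 to 10297.

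**Figure D4:**
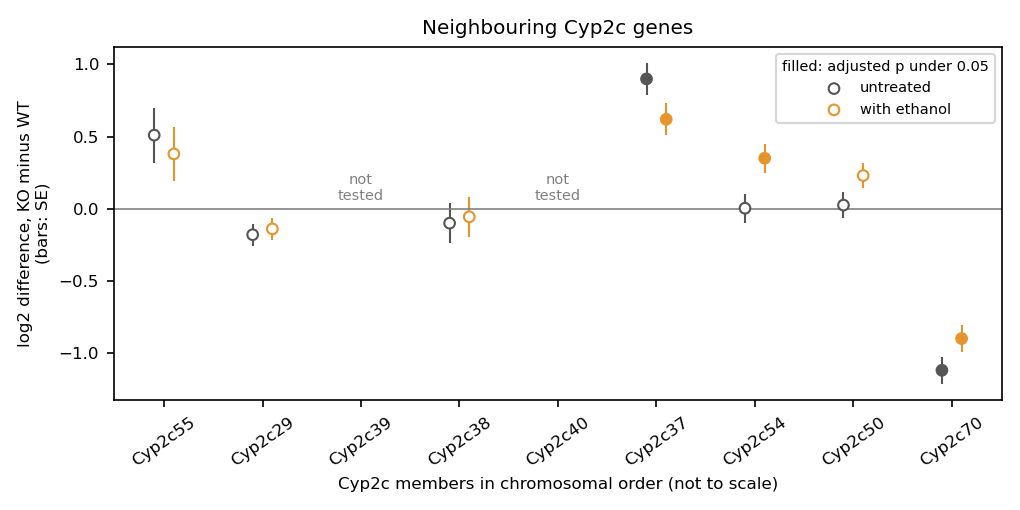
KO minus WT difference on the log2 scale (y axis) of the Cyp2c members in their order on the chromosome (x axis, not to scale), without (grey) and with ethanol (orange). Points are limma estimates from 2 arrays per group, bars are SE, filled points were called, and Cyp2c39 and Cyp2c40 were not tested: Cyp2c37 stands at 0.9 and 0.62 and Cyp2c70 at -1.12 and -0.9.

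Cyp17a1, next after Cyp2c70 among the members on that chromosome, encodes the steroid 17-hydroxylase and lyase. Its normalised intensity was 174 and 131 in WT cells without and 132 and 141 with ethanol, and 5.03 and 6.19 in KO cells without and 11.5 and 27.2 with ethanol. No KO array reached a WT array. The group means on the log2 scale were 7.39 and 7.26 in WT and 4.43 and 5.11 in KO, against a filter threshold of 5.4, so the gene entered the tested set through WT and its difference is given as a description. It was -2.95 ± 0.29 untreated and -2.15 ± 0.29 with ethanol, and its size rests on the offset, since the untreated value ran from -4.53 with an offset of 1 to -1.63 with an offset of 64.

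Among the Cyp2d genes, which encode P450s of basic drugs, Cyp2d22 set the KO ethanol arrays apart. It read 638 and 674 in WT cells without and 598 and 699 with ethanol, and 695 and 685 in KO cells without and 1155 and 1212 with ethanol. The other 3 groups lay between 598 and 699, and the ethanol KO pair lay above them. Ethanol raised it 1.7-fold in KO (0.76 ± 0.099, adjusted p = 0.0012), and its difference in WT was -0.019 ± 0.099 (adjusted p = 0.96). It was the 1 member of 30 (3.33%, against 3.21% of genes called higher and 1.81% lower) whose ethanol effect differed between genotypes, by 0.78 ± 0.14 (adjusted p = 0.015). The second Cyp2d22 probe set was called for KO against WT with ethanol (0.93, adjusted p = 0.0013) but neither for ethanol in KO (0.42, adjusted p = 0.063) nor for the difference of effects (0.68, adjusted p = 0.086). Without untreated WT A, untreated WT B, ethanol WT A, untreated KO A or untreated KO B, the difference of effects was not called. At an unadjusted p under 0.05 the difference of effects held 9 members, with no share of all genes counted at that threshold.

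Cyp2d26 was higher in KO by 0.32 ± 0.066 untreated (adjusted p = 0.0049) and 0.37 ± 0.066 with ethanol (adjusted p = 0.0027), with 3935 to 4179 on the WT arrays and 4899 to 5652 on the KO arrays. Cyp2d9, which is male-biased in mouse liver, rose with ethanol in KO from 3865 and 4183 to 5138 and 5503 (0.4 ± 0.079, adjusted p = 0.0074); without untreated KO A, or with trimmed-mean scaling, it was not called. Cyp2d10 was called nowhere.

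The Cyp3a genes encode P450s of the widest range of drugs. Cyp3a25 read 4482 and 4467 in WT cells without and 4392 and 4297 with ethanol, and 2936 and 3024 in KO cells without and 2974 and 3578 with ethanol. It was lower in KO by -0.58 ± 0.086 (adjusted p = 0.00088) and -0.41 ± 0.086 (adjusted p = 0.0066), without overlap. Cyp3a11, the PXR target, was near the top of the range at 11796 to 14697. It was called higher in untreated KO (0.23 ± 0.073, adjusted p = 0.035), a call lost under 10 of 21 other settings, among them leaving out any 1 of 6 arrays, and the difference was 1.01 when arrays were scaled by their trimmed mean. Cyp3a13 and Cyp2j5 were called in no contrast.

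**Figure D5:**
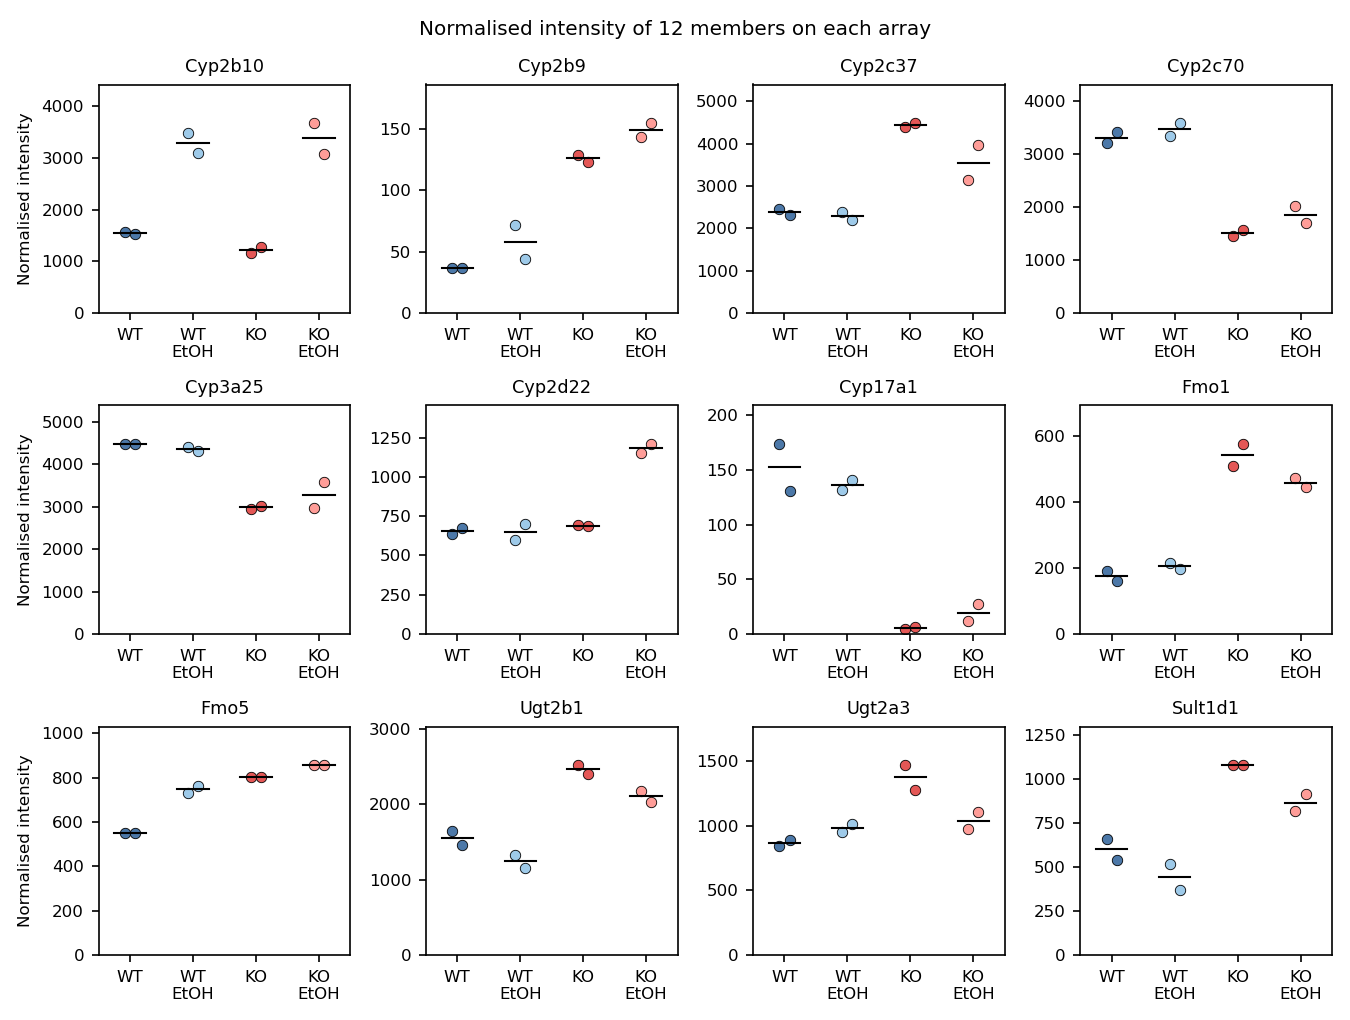
Normalised intensity (y axes, each from 0) of 12 members on each of the 8 arrays by group (x axes; EtOH, 100 mM ethanol). Points are single arrays, A at the left and B at the right of each pair, and lines are the means of 2 arrays: Cyp2b10 separates by ethanol, Cyp2c70 and Fmo1 by genotype, and Cyp2d22 is high in the ethanol KO pair at 1155 and 1212.

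Among the conjugating enzymes in the set, 4 Ugt and 2 Sult genes were tested. Of these, Ugt2b1, Ugt2a3 and Sult1d1 were called higher in untreated KO and none lower, beside 15.1% and 21% of all genes. The related Ugt2b35, outside the set, was called lower in KO, by -0.72 ± 0.1 untreated (adjusted p = 0.00061) and -0.87 ± 0.1 with ethanol (adjusted p = 0.00023). Ugt2b1, a glucuronosyltransferase, read 1642 and 1454 in WT cells without and 1331 and 1158 with ethanol, and 2525 and 2396 in KO cells without and 2174 and 2034 with ethanol. It was higher in KO by 0.67 ± 0.095 (adjusted p = 0.00071) and 0.75 ± 0.095 (adjusted p = 0.00041). Ugt2a3 read 842 and 889, 952 and 1009, 1472 and 1278, and 974 and 1104 in the same order. It was higher in untreated KO (0.66 ± 0.1, adjusted p = 0.0011) and fell with ethanol in KO (-0.4 ± 0.1, adjusted p = 0.021), so that with ethanol the genotypes overlapped. Without untreated KO A or ethanol KO A the ethanol call was lost. Ugt2b5 was called in no contrast, and Ugt2b34 only by its dimmer probe set, in untreated cells (0.25, adjusted p = 0.045).

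Sult1d1, a sulfotransferase of catecholamines, read 659 and 539 in WT cells without and 519 and 368 with ethanol, and 1080 and 1076 in KO cells without and 817 and 912 with ethanol. It was higher in KO by 0.84 ± 0.16 untreated (adjusted p = 0.0031) and 0.96 ± 0.16 with ethanol (adjusted p = 0.0018). Its second probe set was called in untreated cells (0.56, adjusted p = 0.031) and showed no difference with ethanol (-0.00054, adjusted p = 1). That probe set was instead called lower with ethanol in KO (-0.73, adjusted p = 0.016), where the brightest was not (-0.32, adjusted p = 0.18). Sult1a1 was called in no contrast.

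Cyp2a4 and Cyp2a5, near-identical P450 genes of steroid and coumarin hydroxylation, share a probe set that cannot tell them apart and that is no member by the naming rule. It read 7063 and 6895 in WT cells without and 5712 and 6006 with ethanol, and 8847 and 8943 in KO cells without and 10779 and 10245 with ethanol. The groups did not overlap. The difference was -0.25 ± 0.061 for ethanol in WT (adjusted p = 0.043) and 0.24 ± 0.061 in KO (adjusted p = 0.021), and these effects differed by 0.49 ± 0.086 (adjusted p = 0.014). The WT call was lost under 11 of 21 other settings, including without any 1 WT array, and the KO call under 6 of 20, including without either untreated KO array. In 1 further setting, trimmed-mean scaling, the KO value turned to -0.18 and was not called (adjusted p = 0.34). KO exceeded WT by 0.35 untreated (adjusted p = 0.0021) and 0.84 with ethanol (adjusted p = 1.4e-05).

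Other genes of the pathway were counted by list, to be read against the shares of all genes called higher and lower: 2.3% and 2.51% for ethanol in WT, 14.1% and 10% for ethanol in KO, 15.1% and 21% for KO against WT untreated, and 12.4% and 17.5% for KO against WT with ethanol. Of the partners of CAR and PXR, 18 of 21 were tested. In untreated cells 3 of 18 were higher in KO and 5 lower, and with ethanol 2 were higher and 7 lower; ethanol raised 2 in WT and 6 in KO and lowered none. The median difference was -0.2 and -0.26 for genotype and 0.17 and 0.12 for ethanol. Hnf4a, the hepatocyte nuclear receptor, read 1146 and 1199 in WT cells without and 1592 and 1651 with ethanol, and 467 and 430 in KO cells without and 820 and 704 with ethanol by its brightest probe set. It was -1.36 ± 0.098 lower in untreated KO (adjusted p = 1.6e-05), and 2 of its 3 other probe sets were called lower as well (-0.65 and -0.77), while the dimmest showed 0.049. With ethanol it was -1.08 ± 0.098 (adjusted p = 6.1e-05), where 1 other was lower (-0.91) and the dimmest higher (0.97, adjusted p = 0.015).

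Rxra, the binding partner of both receptors, read 379 and 426, 460 and 525, 210 and 136, and 276 and 309 in the same order of groups. It was -1.17 ± 0.18 lower in untreated KO (adjusted p = 0.0012), where its dimmer second probe set was not called (-0.4, adjusted p = 0.18). Gadd45b, also on this list, was higher in KO by 0.8 ± 0.16 untreated (adjusted p = 0.004) and 1.5 ± 0.16 with ethanol (adjusted p = 0.00013). Its dimmer probe sets were not called untreated (0.29 and 0.15), and with ethanol only the brighter of them was (0.89, adjusted p = 0.0038). Foxa2, a liver-enriched forkhead factor, read 297 and 336 in WT cells without and 351 and 363 with ethanol, and 42.5 and 58.1 in KO cells without and 243 and 180 with ethanol. It was -2.33 ± 0.19 lower in untreated KO (adjusted p = 2.7e-05) and rose with ethanol in KO by 1.77 ± 0.19 (adjusted p = 0.00054). Cebpa, another liver-enriched factor, rose with ethanol by 1.05 ± 0.18 in each genotype (adjusted p = 0.0095 and 0.0036), and the WT call was lost under 6 of 22 other settings, including without any 1 WT array.

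Of 36 other phase I enzymes, 16 were tested. Ethanol raised 1 in WT and 4 in KO and lowered none; 5 were higher and 4 lower in untreated KO, and 6 and 4 with ethanol. Cyp1a2, an AHR-responsive P450, read 2767 and 2701 in WT cells without and 3765 and 3635 with ethanol, and 2598 and 2637 in KO cells without and 3808 and 3609 with ethanol. It rose by 0.43 ± 0.066 in WT (adjusted p = 0.0055) and 0.5 ± 0.066 in KO (adjusted p = 0.0013), and the WT call was lost under 6 of 22 other settings, including without untreated WT A, untreated WT B or ethanol WT A. Cyp2e1, the ethanol-oxidising P450, read 9512 to 10130 on the WT arrays and 13708 to 16206 on the KO arrays. It was higher in KO by 0.6 untreated (adjusted p = 0.00056) and by 0.64 ± 0.082 with ethanol (adjusted p = 0.00045). Its ethanol difference was -0.061 in WT and -0.021 in KO (adjusted p = 0.79 and 0.88). Ces1d, a carboxylesterase, was higher in KO by 1.93 ± 0.076 untreated (adjusted p = 3.2e-07) and 1.5 ± 0.076 with ethanol (adjusted p = 1.8e-06), and its dimmest probe set was not called with ethanol (0.88, adjusted p = 0.09).

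P450s need haem and electrons, and all 13 measured genes of that supply were tested. In untreated KO 3 were higher and 4 lower, and with ethanol 3 and 3; ethanol lowered 1 in WT, and raised 3 and lowered 1 in KO. Alad, of haem synthesis, was lower in untreated KO (-1.31 ± 0.092, adjusted p = 1.3e-05) and rose with ethanol in KO (0.86 ± 0.092, adjusted p = 0.00059). Cpox, also of haem synthesis, was higher in untreated KO (1.04 ± 0.17, adjusted p = 0.0014) and fell with ethanol in KO (-0.83 ± 0.17, adjusted p = 0.008). Its dimmer second probe set was called in neither (-0.075 and 0.43). Hmox1, which degrades haem, was higher in KO by 0.9 ± 0.077 untreated (adjusted p = 4.1e-05) and 1.37 ± 0.077 with ethanol (adjusted p = 3.5e-06). Alas1, the rate-limiting enzyme of haem synthesis and itself a CAR and PXR target, rose with ethanol in KO by 0.37 ± 0.078 (adjusted p = 0.0099; second probe set 0.54, adjusted p = 0.14), a call lost without untreated KO A or untreated KO B.

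Among 28 other phase II and cofactor genes, 16 were tested, and 4 were higher and 3 lower in untreated KO, as were 3 and 3 with ethanol. Ethanol raised 1 and lowered 3 in WT and raised 2 and lowered 2 in KO. Inmt, an indole N-methyltransferase, was higher in KO (1.02 ± 0.075, adjusted p = 1.8e-05, untreated) and Nnmt, a nicotinamide methyltransferase, lower (-1.17 ± 0.094, adjusted p = 2.9e-05). Sult1e1, the oestrogen sulfotransferase, fell with ethanol by 0.55 in WT and 0.86 in KO (adjusted p = 0.027 and 0.0015), and the WT call was lost under 8 of 22 other settings, including without any 1 WT or untreated KO array. Of the AHR complex and targets, 5 of 11 were tested. In untreated KO 2 were higher and 1 lower, with ethanol 1 and 2; ethanol raised 1 and lowered 1 in WT and raised 1 in KO. Tiparp was higher in KO (1.56 ± 0.099 untreated, adjusted p = 7.4e-06) and Nqo1 lower (-0.95 ± 0.14, adjusted p = 0.00072).

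Transporters of bile acids and drugs were tested for 15 of 16 genes. In untreated KO 4 were higher and 6 lower (15.1% and 21% of all genes), and with ethanol 1 and 6 (12.4% and 17.5%). Ethanol raised 2 in WT (2.3% of all genes), and raised 6 and lowered 2 in KO (14.1% and 10%). Slc10a1, the bile acid uptake carrier, was lower in untreated KO (-0.94 ± 0.1, adjusted p = 0.00016) and rose with ethanol in KO (0.55 ± 0.1, adjusted p = 0.0061), the latter call being lost without untreated KO A. The same calls were made for Abcb4, the phospholipid export pump (-1.13 ± 0.13, adjusted p = 0.00024, and 0.74 ± 0.13, adjusted p = 0.0051). Slco2b1, an uptake carrier, rose with ethanol by 1.15 ± 0.15 in WT (adjusted p = 0.0033) and by 0.54 in KO (adjusted p = 0.035). The difference between these effects was not called (-0.61, adjusted p = 0.14).

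Markers of other cell types were read beside the genotype differences. In whole cultures, fewer cells of a type and less RNA per cell cannot be told apart. Summed hepatocyte markers read 77859 to 83421 on WT and 69456 to 74724 on KO arrays, with 3 of 10 higher and 6 lower in untreated KO. Summed Kupffer cell and macrophage markers read 1020 to 1190 on WT and 1668 to 2447 on KO arrays, with 1 of 7 higher (Cd68, 1.5 ± 0.097) and 2 lower in untreated KO. Cd68 alone read 411 to 1859 over the arrays, every other gene of that list read at most 201, and Clec4f, a defining Kupffer marker, read 64.4 to 91.1. Summed cholangiocyte markers read 312 to 460 against 768 to 1118, with Sox9 the 1 of 2 tested genes called and Krt7 at 0.747 to 25.5. Endothelial sums were 354 to 482 on WT and 468 to 574 on KO arrays, with 1 of 6 higher in untreated KO. Stellate sums were 194 to 320 and 198 to 508 and leukocyte sums 147 to 195 and 152 to 236, with none called between genotypes. Of 19 acute phase genes, 10 were higher and 1 lower in untreated KO and 8 and 1 with ethanol, beside 15.1% and 21% of all genes untreated and 12.4% and 17.5% with ethanol. The part of these differences in the members' values was not tested.

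Genes that differ between male and female mouse liver were followed because Cyp2b9 and Cyp17a1 are among them. Of 12 tested male-biased genes, 2 of them members, 2 were higher and 4 lower in KO, untreated and with ethanol alike. Of 8 tested female-biased genes, 3 of them members, 1 was higher and 3 lower untreated and 2 and 2 with ethanol. The member Cyp2b9 was the 1 higher untreated, and the members Cyp17a1 and Cyp2b10 were among the 3 lower. Cyp17a1 was also among the 2 lower with ethanol. It entered the tested set only through WT and had to differ, so its place in these counts is a description and not support. Of all genes, 15.1% were higher and 21% lower untreated, and 12.4% and 17.5% with ethanol. The Y-linked Eif2s3y read 266 to 829 over the 8 arrays and Kdm5d 38.3 to 82.7, and none of 4 tested sex-chromosome genes was called between genotypes. Eif2s3y was called lower with ethanol in KO (-0.99 ± 0.24, adjusted p = 0.016), where it read 829 and 675 without and 266 and 506 with ethanol. Ethanol KO A was also the lowest array for Kdm5d at 38.3 and for the Y-linked Uty at 33.9, against 81.5 to 112 on the others. A dimmer Uty probe set read 27.2 there and 19.8 to 50.9 over all arrays. Xist was highest on ethanol KO A at 65, against 17.5 to 61.8 on the others. A difference in the sex of the cells was not tested. For the fit without ethanol KO A, no share of all genes called was counted. A changed count of members there cannot be read as particular to the members. Without ethanol KO A, 6 members were called for ethanol in KO, 3 of them among the 6 called with it, and 11 for KO against WT with ethanol, 10 of them among the 11 called with it.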

How the data were processed

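Each of 8 RNA samples was labelled with biotin by in vitro transcription and hybridised to its own 1-colour array, per the labels' protocols. The deposited values are linear signal intensities for 45101 probe sets; how the authors summarised and scaled them is not given in the sources used here. On ethanol WT B, 5410 intensities were unusable (zero or outside 0.001 to 1e+05), and those probe sets were left out, which left 39627 complete non-control probe sets. Intensities were quantile normalised, and log2(intensity + 16) was tested with limma 3.58.1 in R 4.3.3 on the brightest 50% (19814 probe sets, mean at or above 5.4), with 4 group means over 8 arrays and an intensity trend (4 residual and 5.43 prior degrees of freedom). P-values were adjusted by Benjamini and Hochberg within each of 5 contrasts, and adjusted p under 0.05 was a call. A fold on this scale understates the change of dim genes. The number of arrays limits precision. Probe sets were named through the platform annotation, and promoters came from RefSeq (GRCm38.p6). Named genes were every member, with every array given for receptors and larger changes, and up to 4 genes per list and contrast with the smallest adjusted p; further arrays were printed for members chosen after their values were seen. The members and lists were chosen with earlier results of these data known. The fit was tested on simulated data. Alternatives were other scalings, offsets, filters, variance priors, a replicate block, handling of the B ethanol arrays and leaving out arrays.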

Additional observations from a re-analysis of the deposited data

Results flagged for a closer look

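The ethanol effect, KO minus WT, differed between genotypes by limma's interaction term for the following results, and no explanation was weighed. Cyp2d22 differed by 0.78 (adjusted p = 0.015; higher with ethanol on both KO arrays, and no difference called in WT), and the call was lost under 7 of 20 other settings. The probe set shared by Cyp2a5 and Cyp2a4 differed by 0.49 (adjusted p = 0.014), lost under 8 of 19. Foxa2 differed by 1.61 (adjusted p = 0.011), lost under 6 of 20. Ugt3a2, a glycosyltransferase gene, differed by 1.41 (adjusted p = 0.0023): it read 1767 and 1814 in WT cells without and 914 and 957 with ethanol, and 1661 and 1631 in KO cells without and 2600 and 2046 with ethanol, and the call was lost under 2 of 20. Hmox1 differed by 0.47 (adjusted p = 0.041), lost under 13 of 20. Papss2, which makes the sulfate donor, differed by -0.77 (adjusted p = 0.017), lost under 9 of 20, and its other tested probe sets gave 0.56 and 0.39 without a call. Abcb1a, a drug efflux pump, differed by -0.77 (adjusted p = 0.036), lost under 11 of 20, and its second probe set gave -0.2 without a call.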

How the results depend on the processing

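Of the 33 called member results, 12 were called under each of the settings run, 21 lost the call under at least 1 and none reversed; of 87 called results of the pathway lists and the shared probe set, 33 were called under each and 1 reversed (Cyp2a5 and Cyp2a4 in KO, -0.18 with trimmed-mean scaling). Counts of called members changed as follows, and the cause was not tested. The share of all genes called was not counted under the other settings. A changed count of members therefore cannot be read as particular to the members. For ethanol in WT (2 called), the count was 1 without an intensity trend or with missing values kept, and 4 with the compared groups alone, the replicate block, the spike-in ratio class as a term or without the 3 dim KO arrays, the last chosen after the data were seen. For ethanol in KO (6 called), it was 3 without a trend or with the compared groups alone, and 12 with the B ethanol arrays left out. Counting the B ethanol arrays as untreated gave 0 for ethanol in WT, 0 for ethanol in KO, 0 for the interaction and 3 for KO against WT with ethanol (11 called). For the interaction (1 called), it was 3 with trimmed-mean scaling, 2 with an offset of 64, the top 30% of probe sets or 1 probe set per gene, 0 without a trend and 8 with the B ethanol arrays left out. Leaving out 1 array gave 1 to 4 for ethanol in WT, 2 (without untreated KO A) to 11 (without ethanol KO B) for ethanol in KO, 11 to 17 for KO against WT untreated, 10 to 15 with ethanol and 0 to 10 (without ethanol KO B) for the interaction; where 1 array of a group was left, it was assumed to vary like the other groups.

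With trimmed-mean scaling, ethanol in KO called 4 higher and 5 lower instead of 4 and 2, and the interaction 1 and 2 instead of 1 and 0. KO against WT called 13 higher and 4 lower untreated instead of 9 and 4, and 7 and 3 with ethanol instead of 8 and 3. This scaling moved the median of all probe sets from -0.047 to 0.064 for KO against WT with ethanol, and from -0.035 to -0.036 untreated. The labels do not say what A and B share. The A minus B differences correlated at 0.2 to 0.3 among untreated WT, ethanol WT and ethanol KO, where the letters also differ in spike-in ratio class, and at 0.022 to 0.031 between these and untreated KO, so the letters were not taken to pair the samples. With the letter as a replicate block, ethanol called 4 members in WT and 5 in KO, genotype 15 without and 12 with ethanol, and the interaction 1. Signals near the offset of 16, as for Cyp17a1 in KO, limit the size of a fold more than its direction, which held with an offset of 1 and of 64.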
